A study of Mus musculus with 8 samples.

Results

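Oxidative phosphorylation is carried out by 5 protein complexes of the inner mitochondrial membrane, and the genes of their subunits were followed in dorsal skin of Tph1 knockout and wild-type mice. Members were the genes whose symbol names a subunit of these complexes (mt-Nd, mt-Co, mt-Cytb and mt-Atp genes, Nduf subunits of the a, b, c, s and v series, Cox4 to Cox8, Uqcr, Atp5 and Sdha to Sdhd), without pseudogenes named -ps and without Cox7a1 and Cox8b. This gave 100 of 55488 genes, of which 13 are encoded by mitochondrial DNA and 87 by nuclear DNA. Counts reached the level needed for a test in 95 of the 100, namely all 13 mitochondrially encoded genes and 82 of the nuclear ones. The 5 left out were Ndufa11b, Ndufs6b, Cox7b2, Cox8c and a further gene entry named Atp5o. The annotation types 4 nuclear members as processed pseudogenes, which are Ndufa11b, Ndufb4c, Ndufs6b and Cox6c2.

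The 4 knockout and 4 wild-type libraries were bulk RNA-seq of total RNA from dorsal skin of mice aged 3 months. Tph1 encodes the tryptophan hydroxylase that limits serotonin synthesis outside the brain, and the series asks how its loss acts on epidermis and dermis. Strain, sex, the knockout allele and any pooling of animals are not given in the sources used here, and nothing in the labels says that each library came from its own mouse, so that a p-value here reflects how far these libraries vary. Library totals were 20971296 to 24463037 expected counts in knockout and 20531586 to 24678600 in wild type. Tph1 itself had 0 counts in each knockout library, against 18, 0, 27 and 11 in the wild-type libraries, so at this depth the check does not tell wild type 2 from knockout. Basal keratinocyte markers were abundant in both genotypes, summing to 9689 to 17952 CPM (counts scaled to library size) over 7 genes in knockout and 13509 to 25653 CPM in wild type.

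In this pathway, complex I (NADH dehydrogenase) and complex II (succinate dehydrogenase) pass electrons to ubiquinone, complex III (cytochrome bc1) passes them to cytochrome c, complex IV (cytochrome c oxidase) passes them to oxygen, and complex V (ATP synthase) uses the resulting proton gradient to make ATP. Mitochondrial DNA encodes the membrane core of complex I, cytochrome b of complex III, the catalytic core of complex IV and a pair of membrane subunits of complex V, while complex II is wholly nuclear. Skeletal muscle is rich in all of these complexes, and mouse dorsal skin carries a thin sheet of it, the panniculus carnosus.

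Stretches of the mitochondrial genome also lie in nuclear DNA, and the sequences below show why the reads of several mitochondrially encoded members cannot be assigned to one place. The annotation of GRCm38 lists pseudogenes in one block of chromosome 1 that match mt-Co2, mt-Atp6, mt-Co3 and mt-Nd4l at 100% identity and mt-Nd3 at 99.71%. Between mt-Nd3 and its copy Gm28438, 1 of 345 compared bases differed, T3C counted from 1 at the first base of mt-Nd3, and it is in capitals in the stretches chrM:9459-9519 (plus strand) and chr1:24613059-24613119 (minus strand). Between mt-Atp6 and its copy Gm10925, 0 of 678 compared bases differed, as in the stretches chrM:7937-7997 (plus strand) and chr1:24614581-24614641 (minus strand), shown for the gene with the highest fold change.
mt-Nd3: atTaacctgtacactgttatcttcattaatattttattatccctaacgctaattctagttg
Gm28438: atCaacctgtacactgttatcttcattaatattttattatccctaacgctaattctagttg
mt-Atp6: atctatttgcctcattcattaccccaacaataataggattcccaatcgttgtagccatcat
Gm10925: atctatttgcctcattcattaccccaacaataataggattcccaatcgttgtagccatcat

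The authors' counting gave most of such reads to the nuclear copies. The row of mt-Atp6 held 1.67% to 3.51% of the counts of gene and copy together in knockout and 0.684% to 2.28% in wild type. For mt-Co3 the gene's own row held 2.91% to 4.16% in knockout and 0.81% to 3.89% in wild type, for mt-Co2 4.00% to 5.58% and 3.03% to 7.32%, for mt-Nd3 7.49% to 12.1% and 8.96% to 13.2%, and for mt-Nd4l 18.7% to 23.9% and 22.6% to 43.8%. The row of mt-Co1, whose copy matches only part of it, held 88.5% to 92.2% in knockout and 83.4% to 90.2% in wild type. The other 7 members kept nearly all of their reads, since they had no annotated copy by the limits used (95% identity over 150 bases) or copies with close to no counts. Values are therefore given for each gene's own row and, where they differ, with the counts of its copies added, which was decided after the values were seen.

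Promoters are shown for 4 nuclear members that carry binding motifs of factors known for control of respiratory genes. RefSeq promoter sequence (GRCm38.p6, 250 bases before to 50 after the start) was matched by symbol for 66 of the 87 nuclear members. Searched on both strands, the NRF1 core motif GCGCANGCG was present in 20 of the 66 promoters (30.3%), against 7.03% of all 27025 genes in the table and 13.4% of those tested here. The ETS motif CCGGAAG, the core bound by GABPA, was present in 17 (25.8%, against 9.93% of all and 17.8% of tested genes), the YY1 motif AAGATGGCG in 7 (10.6%, against 1.64% and 3.06%) and the estrogen-related receptor (ERR) motif AAGGTCA in 8 (12.1%, against 5.38% and 4.04%). A GC box, GGGCGG, was present in 28 (42.4%, against 38.2% and 64.8%) and TATAAA in 7 (10.6%, against 15.7% and 9.73%). The NRF1 motif is nearly its own reverse complement, so 1 site can match on both strands and the matches then overlap. The motifs and the examples were chosen with counts of matches known, and a match is not evidence of binding in these samples.

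Capitals mark NRF1 motifs in Uqcrc1 (chr9:108936398-108936697, plus strand), NRF1 and ETS motifs in Cox6a1 (chr5:115348909-115349208, minus strand), the YY1 motif in Ndufs7 (chr10:80249199-80249498, plus strand), and NRF1 and ERR motifs in Atp5g3 (chr2:73911277-73911576, minus strand).
Uqcrc1: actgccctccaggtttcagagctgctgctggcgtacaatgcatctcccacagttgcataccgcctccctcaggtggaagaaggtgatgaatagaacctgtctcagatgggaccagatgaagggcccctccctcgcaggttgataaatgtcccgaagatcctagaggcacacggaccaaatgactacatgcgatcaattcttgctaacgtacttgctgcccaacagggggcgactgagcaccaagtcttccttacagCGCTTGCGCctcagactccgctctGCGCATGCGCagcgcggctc
Cox6a1: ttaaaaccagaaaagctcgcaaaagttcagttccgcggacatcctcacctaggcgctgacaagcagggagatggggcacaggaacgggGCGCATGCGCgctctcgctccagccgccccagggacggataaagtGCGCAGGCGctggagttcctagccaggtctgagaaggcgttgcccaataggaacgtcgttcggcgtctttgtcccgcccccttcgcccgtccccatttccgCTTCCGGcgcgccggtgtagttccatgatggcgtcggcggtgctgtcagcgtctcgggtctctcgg
Ndufs7: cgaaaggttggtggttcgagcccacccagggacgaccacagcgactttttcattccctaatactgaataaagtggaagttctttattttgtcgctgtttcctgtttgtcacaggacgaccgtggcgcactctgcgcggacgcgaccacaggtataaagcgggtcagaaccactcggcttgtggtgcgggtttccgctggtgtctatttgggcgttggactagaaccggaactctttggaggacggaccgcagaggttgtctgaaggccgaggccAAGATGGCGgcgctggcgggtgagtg
Atp5g3: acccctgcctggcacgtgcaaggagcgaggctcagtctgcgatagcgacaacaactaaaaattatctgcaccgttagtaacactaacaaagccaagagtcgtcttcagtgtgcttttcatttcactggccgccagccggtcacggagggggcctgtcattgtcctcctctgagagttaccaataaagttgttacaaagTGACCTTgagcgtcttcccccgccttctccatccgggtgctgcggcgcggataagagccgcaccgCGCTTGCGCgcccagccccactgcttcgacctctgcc

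Across the pathway, mitochondrially encoded transcripts stood higher in knockout skin and nuclear encoded ones differed little, but no single member passed the test. Over all 16908 tested genes, edgeR's quasi-likelihood test with Benjamini-Hochberg adjustment called 110 (0.651%) at an adjusted p under 0.05, 0.118% higher and 0.532% lower, and 0 of the 95 tested members. With any 1 library left out it called 8 to 170 genes and again 0 members. At an unadjusted p under 0.05, 6 of 13 mitochondrially encoded members were above wild type, where 8.26% of all tested genes were. At the same limit 3 of 82 nuclear members were below wild type, where 9.37% of all genes were. In either direction, 17.6% of all tested genes stood at that limit. DESeq2 called 3 members, mt-Atp6, mt-Atp8 and mt-Nd5, all higher, where it called 2.05% of all genes higher and 5.88% in either direction.

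The log2 fold change (knockout over wild type) was above 0 for 13 of 13 mitochondrially encoded members, with a median of 0.81 and a range of 0.39 to 1.60. It was above 0 for 71 of 82 nuclear members, with a median of 0.18 and a range of -1.11 to 0.67. Among all tested genes 53.1% lay above 0 and the median was 0.029. The members were measured in the same 8 libraries and are not independent, so these are not counts of separate results. The nuclear median rested on single libraries. It was 0.0030 without knockout 1, 0.080 without wild type 1 and 0.075 without wild type 3, but 0.32 without knockout 3 and 0.33 without wild type 4. The median of the 13 stayed between 0.57 and 1.10 over the same 8 fits. Adjusted p by edgeR was 0.119 to 0.440 for the mitochondrially encoded members and at least 0.198 for the nuclear ones. With the copies' counts added, the median of the 13 was 0.72, edgeR again called 0 of them, and 6 were higher at an unadjusted p under 0.05, as were 8.25% of all genes in that fit. These were not the same 6 as on the genes' own rows. With copies added mt-Co3 and mt-Atp6 no longer reached that limit, and mt-Nd3 and mt-Nd4l did.

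**Figure D1:**
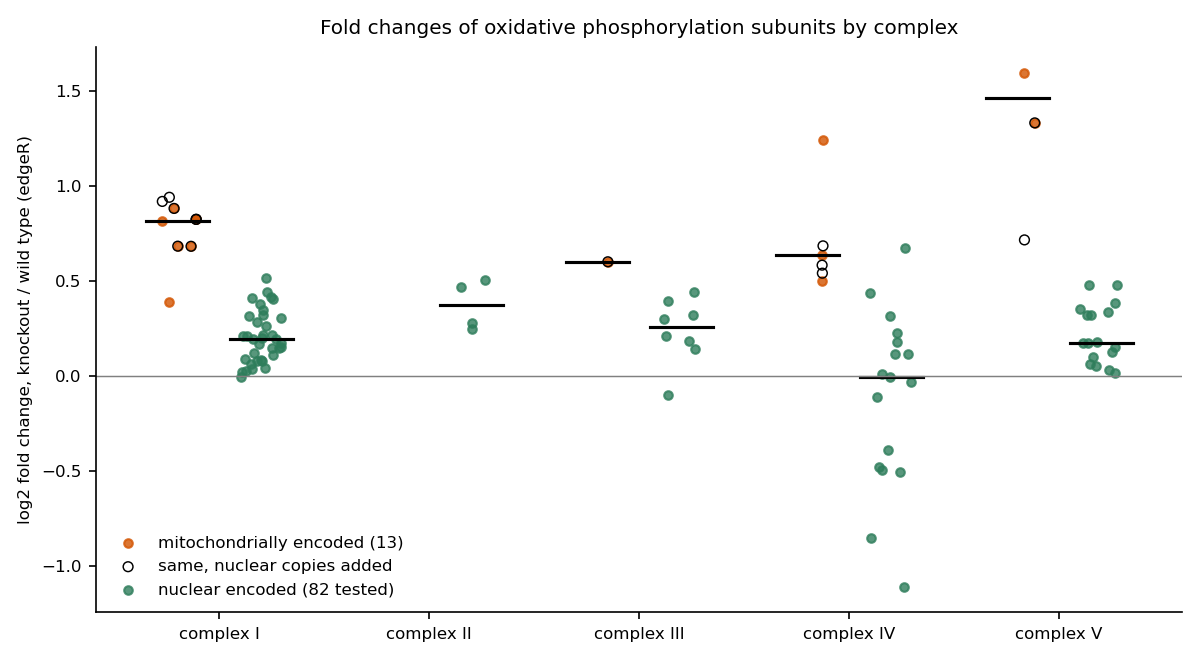
Log2 fold change (knockout over wild type, edgeR) of each tested member by complex, with mitochondrially encoded genes left of nuclear ones; black lines are medians and open circles show the mitochondrially encoded genes with the counts of nuclear copies added. All 13 mitochondrially encoded genes lie above 0, and adding copies lowers mt-Atp6 to 0.72 and mt-Co3 to 0.69.

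By complex, the median of the mitochondrially encoded members exceeded that of the nuclear ones by 0.62 in complex I, 0.35 in complex III, 0.64 in complex IV and 1.29 in complex V (0.63, 0.35, 0.59 and 0.85 with copies added). On the genes' own rows these differences stayed above 0 with any 1 library left out. They were 0.29 to 0.79, 0.17 to 0.46, 0.46 to 0.83 and 1.02 to 1.71 in that order. The lowest of each range came without wild type 2. Leaving out 1 library at a time was not run with copies added.

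Summed over the 13 genes, reads made up 10.6%, 9.60%, 7.40% and 9.11% of the counts in the knockout libraries and 6.40%, 4.11%, 4.68% and 8.28% in the wild-type libraries. The groups overlapped, since wild type 4 lay above knockout 3. With the copies' reads the shares were 15.96%, 14.6%, 10.8% and 13.9% in knockout and 9.73%, 6.10%, 7.51% and 12.9% in wild type. Nuclear members together took 1.15% to 1.64% of the counts in knockout and 1.04% to 1.41% in wild type.

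Set against each other within a library, over all members together, the difference between the genomes separated the genotypes narrowly. The mean of log2(CPM + 1) over the mitochondrially encoded members minus that over the nuclear ones was 4.05, 4.49, 4.18 and 4.16 in knockout and 4.01, 2.76, 3.28 and 3.80 in wild type. With copies added it was 5.67, 5.97, 5.72 and 5.76 in knockout and 5.59, 4.24, 5.04 and 5.51 in wild type. All 4 knockout libraries were above all 4 wild-type ones on either count, with knockout 1 and wild type 1 the closest. On the genes' own rows the SD was 0.190 in knockout and 0.561 in wild type. Taken by complex, the same difference on own rows separated the genotypes in complex IV and overlapped in I, III and V. With copies added it separated them in I and IV and overlapped in III and V. In complex I the lowest knockout library was then at 5.231 and the highest wild-type library at 5.228.

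Skeletal muscle genes and immediate early genes, which respond to handling of tissue, also differed in mean level between the genotypes, in opposite directions. The mean log2(CPM + 1) of 33 muscle genes was 9.98, 9.71, 9.83 and 10.2 in knockout and 8.57, 9.65, 7.65 and 9.60 in wild type, without overlap, and their sum was 82638 to 147437 CPM in knockout and 20556 to 131182 CPM in wild type. All 33 had a fold change above 0 and 0 were called by edgeR, with 9 at an unadjusted p under 0.05 and 6 called by DESeq2. Of all tested genes 8.26% were higher at that unadjusted limit and DESeq2 called 2.05% higher. Both the mean muscle level and the difference between the genomes were higher in every knockout library than in every wild-type library. Within each genotype their orders were not the same. Wild type 2 had the lowest difference and the highest wild-type muscle level, and knockout 2 had the highest difference and the lowest knockout muscle level. How far the muscle level bears on the difference was not tested beyond the model term given below. Mb, which encodes the oxygen-binding myoglobin of muscle, was at 557 ± 49.3 CPM in knockout and 215 ± 111 CPM in wild type (SD, n = 4). Immediate early genes, 14 in number, averaged 6.20 to 7.46 in knockout and 6.91 to 9.20 in wild type, and the groups overlapped. All 14 had a fold change below 0, with a median of -1.82, and 12 were at an unadjusted p under 0.05, where 9.37% of all tested genes were lower. DESeq2 called 8 of the 14, and edgeR called 1, Nr4a1, a call lost in most fits that left out 1 library. In bulk tissue, more cells of a type and more RNA per cell cannot be told apart.

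With the muscle level as a term in the model, 13 of 13 mitochondrially encoded members still had a fold change above 0, with a median of 0.50. Of the nuclear members only 4 of 82 then did (Ndufs1, Ndufv1, Uqcrfs1 and Atp5b), with a median of -0.17. With the immediate early level as the term, 13 of 13 and 2 of 82 lay above 0, with medians of 1.02 and -0.17. No member was called by edgeR in either model, and since the genotypes do not overlap in muscle level, that term and genotype cannot be fully told apart.

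**Figure D2:**
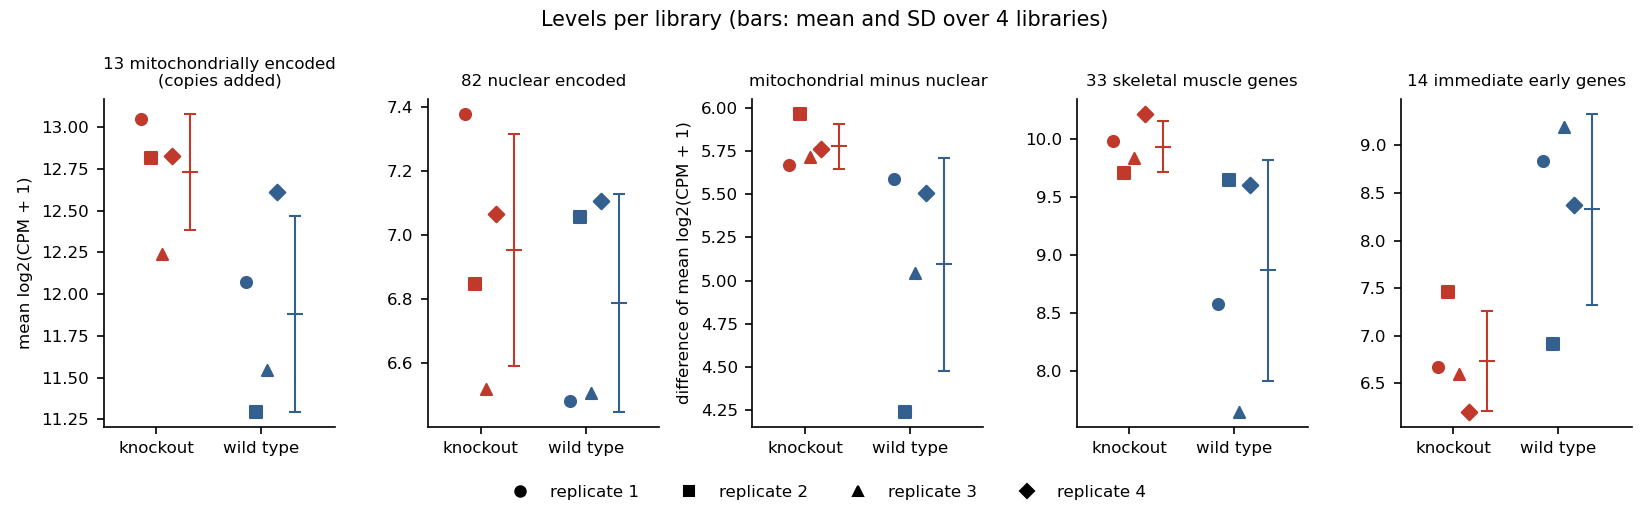
Level in each library as mean log2(CPM + 1) of the 13 mitochondrially encoded genes with copies added, the 82 nuclear genes, their difference, 33 skeletal muscle genes and 14 immediate early genes; each marker shape is a replicate number, which pairs no libraries, and bars are mean and SD (n = 4). The difference runs from 5.67 to 5.97 in knockout and from 4.24 to 5.59 in wild type, and the nuclear level overlaps between genotypes.

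In complex I, the median log2 fold change was 0.81 over the 7 mitochondrially encoded members and 0.20 over the 36 tested nuclear ones. mt-Nd5, a proton-pumping subunit of the membrane arm, was at 6894, 6472, 5298 and 6179 CPM in knockout and 3557, 2339, 2381 and 5196 CPM in wild type. The lowest knockout library lay just above the highest wild-type library. Its log2 fold change was 0.88 ± 0.32 (SE), with an adjusted p of 0.206 by edgeR and 0.0216 by DESeq2. Without overlap between groups stood mt-Nd5, mt-Atp6 and mt-Atp8, 3 of the 13, and 0 of the 82 nuclear members, where 5.39% of all tested genes were higher without overlap and 5.65% lower.

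mt-Nd4, the largest count of complex I, had 9267 to 16375 CPM in knockout and 5018 to 11577 CPM in wild type, and 0.83 ± 0.37 as log2 fold change (SE, edgeR adjusted p = 0.282). mt-Nd1 was at 0.68 ± 0.36 and mt-Nd2 at 0.83 ± 0.36 (SE, edgeR adjusted p = 0.352 and 0.271). mt-Nd3 was at 0.81 ± 0.40 on its own row and 0.92 ± 0.36 with its copy (SE, edgeR adjusted p = 0.318 and 0.230). mt-Nd4l had the lowest log2 fold change of the 13, at 0.39 on its own row and 0.94 with its copy added, so its place among the 13 rests on how reads were divided. mt-Nd6, the one member read from the other strand of mitochondrial DNA, was at 0.68 ± 0.31 (SE, edgeR adjusted p = 0.289). The annotations of mt-Nd5 and mt-Nd6 share 14 bases on opposite strands, and these libraries do not mark strand.

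Nuclear members of complex I ran from -0.0070 (Ndufa11) to 0.52 (Ndufs1), and 35 of 36 were above 0. The core subunits of the matrix arm, which carry the flavin and the iron-sulfur clusters, had a median of 0.38 over 7 genes, against 0.15 over 29 accessory genes. Ndufs1, which holds several of those clusters, was at 172, 101.4, 135 and 176 CPM in knockout and 95.8, 133, 64.8 and 114 CPM in wild type, and its groups overlapped (log2 fold change 0.52 ± 0.24 SE, edgeR adjusted p = 0.303). Ndufb8, an accessory subunit of the membrane arm and the most abundant nuclear member of complex I per length, averaged 426 ± 57.7 TPM (RSEM's level per length) in knockout and 391 ± 87.6 TPM in wild type (SD, n = 4). Ndufb4 and Ndufb4c match at 100% identity over 390 bases, and Ndufb4c took 63.1% to 65.7% of their joint counts in knockout and 63.3% to 65.8% in wild type, so the 2 rows are not separate measurements.

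Complex II has no mitochondrially encoded subunit, and all 4 of its members were above 0, with a median of 0.37. Sdha, the flavoprotein that oxidises succinate, had 407, 249, 334 and 409 CPM in knockout and 231, 331, 170 and 279 CPM in wild type (log2 fold change 0.47 ± 0.24 SE, edgeR adjusted p = 0.331). Sdhb, the iron-sulfur subunit, had 276, 153, 134 and 203 CPM in knockout and 118, 179, 76.7 and 165 CPM in wild type (0.51 ± 0.30 SE, edgeR adjusted p = 0.392). The membrane anchors Sdhc and Sdhd were at 0.24 and 0.28. Groups overlapped for all 4, with knockout 1 high and wild type 3 low for Sdha and Sdhb.

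In complex III, mt-Cytb, its mitochondrially encoded member, had 18370, 13155, 9343 and 14773 CPM in knockout and 8933, 7472, 6915 and 13348 CPM in wild type. Wild type 4 lay above the lower part of the knockout range, and the log2 fold change was 0.60 ± 0.35 (SE, edgeR adjusted p = 0.385). The 8 nuclear members had a median of 0.26. The core subunits Uqcrfs1 (the Rieske iron-sulfur protein), Uqcrc2 and Uqcrc1 had 0.44, 0.40 and 0.32, while Uqcrh, the hinge protein near the cytochrome c site, was lowest at -0.10 ± 0.23 (SE, edgeR adjusted p = 0.850).

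Nuclear members of complex IV were the most evenly split, and their median log2 fold change was -0.0053, with 8 of 17 above 0. Its mitochondrially encoded catalytic subunits had a median of 0.64. mt-Co1, which binds the haems where oxygen is reduced, had 47849, 34470, 26700 and 38527 CPM in knockout and 23740, 18306, 18000 and 34894 CPM in wild type (0.64 ± 0.39 SE, edgeR adjusted p = 0.411). With its copies added mt-Co1 was at 0.58 ± 0.39 (SE, edgeR adjusted p = 0.454). mt-Co2, which receives electrons from cytochrome c, was at 0.50 on its own row and 0.54 with its copies. mt-Co3 was at 1.24 ± 0.45 (SE, edgeR adjusted p = 0.211) on its own row and at 0.69 ± 0.39 (SE, edgeR adjusted p = 0.377) with its copy. Its own row held 524, 578, 296 and 567 CPM in knockout and 236, 194, 57.6 and 343 CPM in wild type, against 9327 to 18025 CPM in knockout and 4993 to 13903 CPM in wild type with the copy.

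**Figure D3:**
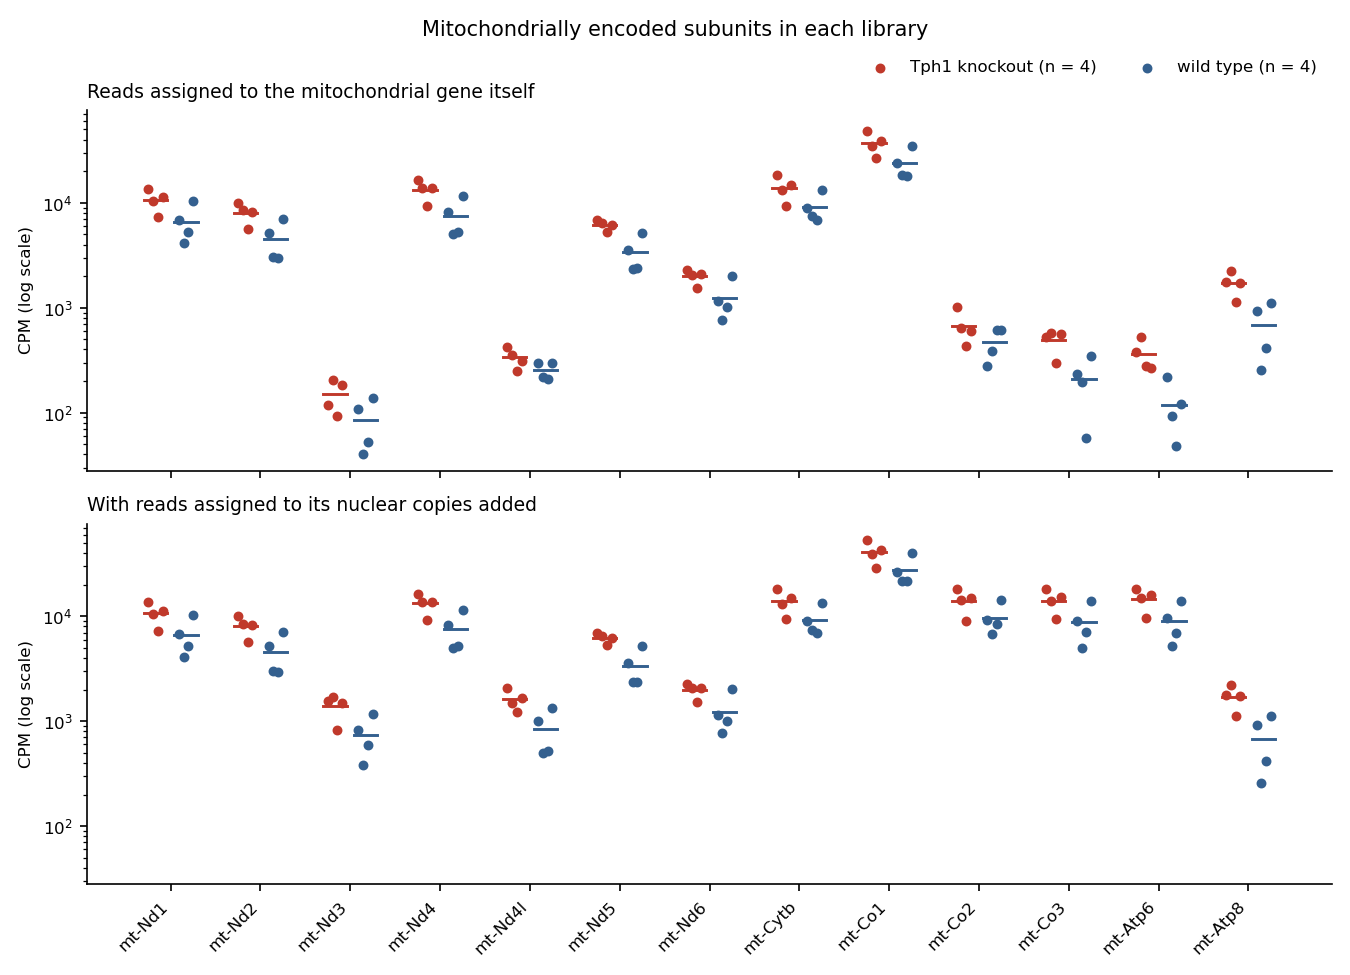
CPM (log scale) of each mitochondrially encoded subunit in every library, knockout left of wild type, from the gene's own row (top) and with the counts of nuclear copies added (bottom); short lines are means of 4 libraries. Copies lift mt-Nd3, mt-Nd4l, mt-Co2, mt-Co3 and mt-Atp6 several fold, and after that mt-Nd5 and mt-Atp8 are the genes whose groups do not overlap.

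The nuclear subunits of complex IV include tissue isoforms, and these had the lowest and the highest fold changes among well-counted nuclear members. Cox6a2, the form of heart and skeletal muscle, had 689, 397, 290 and 507 CPM in knockout and 214, 421, 74.1 and 470 CPM in wild type, 0.67 ± 0.50 as log2 fold change (SE, edgeR adjusted p = 0.496), and wide overlap. Cox6a1, the form of most other tissues, had 104, 104, 77.7 and 82.1 CPM in knockout and 103, 120, 169 and 131 CPM in wild type. Knockout 1 and 2 lay just above the lowest wild-type library, and the log2 fold change was -0.51 ± 0.17 (SE, edgeR adjusted p = 0.198).

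As a share of the TPM of both isoforms, Cox6a2 made up 84.1%, 75.3%, 74.8% and 83.1% in knockout and 62.3%, 73.8%, 25.9% and 74.1% in wild type, without overlap though by less than 1 percentage point at the nearest pair. Cox6a1 kept its sign with the muscle level in the model, at -0.31, and Cox6a2 did not, at -0.39. Cox8a, the form of cytochrome oxidase subunit 8 found in most tissues, was at -0.39 ± 0.17 (SE, edgeR adjusted p = 0.272).

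Ndufa4 is now placed in complex IV, and its relative Ndufa4l2 is induced by low oxygen. Ndufa4l2 had 105, 93.1, 55.3 and 93.3 CPM in knockout and 77.2, 125, 241 and 183 CPM in wild type, -0.85 ± 0.33 as log2 fold change (SE, edgeR adjusted p = 0.228), with wild type 1 inside the knockout range. Ndufa4 was at 0.11 ± 0.23 (SE, edgeR adjusted p = 0.825), and at -0.028 without knockout 1, -0.27 with the muscle level and -0.24 with the immediate early level in the model, so its sign was not settled. Cox4i2, the low-oxygen and lung form, made up 0.252% to 0.966% of Cox4i1 plus Cox4i2 TPM in knockout and 0.557% to 1.06% in wild type. Cox6b2, known from testis, made up 1.10% to 2.38% of the Cox6b forms in knockout and 1.43% to 2.80% in wild type. The lowest fold change of all, -1.11, belonged to Cox6c2, at 0.1 to 1.0 CPM in knockout and 0.3 to 3.1 CPM in wild type. Its value ranged from -1.47 to -0.27 with 1 library left out, and without wild type 2, its highest library, it was -0.27 and no longer the lowest. Cox7a2 and Cox7a2l, relatives of which the longer helps join complexes III and IV, were at -0.033 and -0.11, and Cox6b1 was at 0.012.

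**Figure D4:**
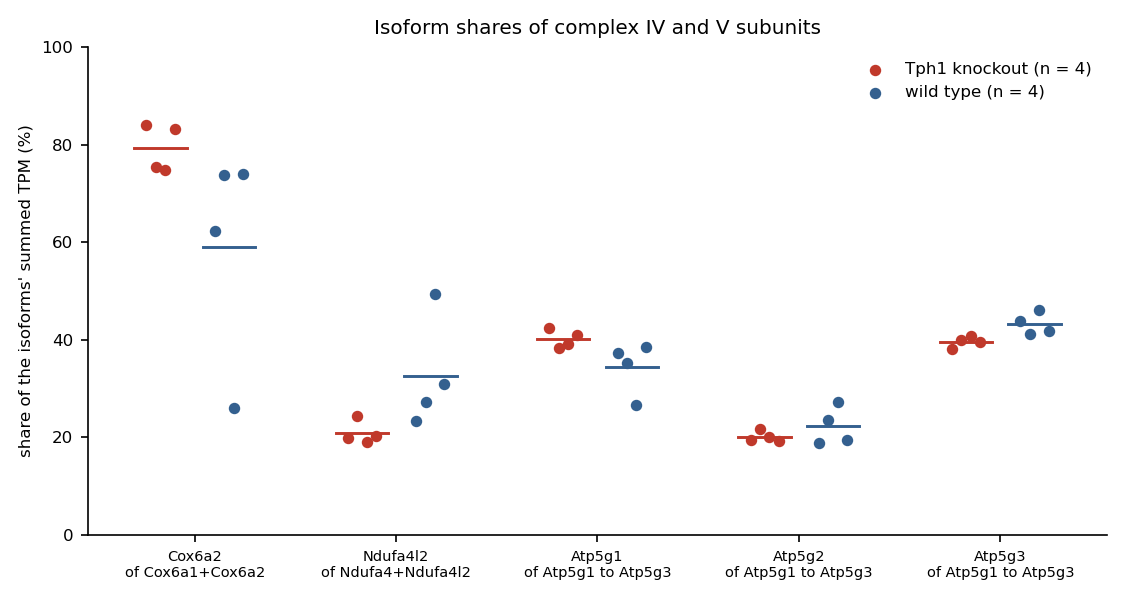
Share of each isoform in the summed TPM of its isoform group, in percent, for every library, knockout left of wild type; short lines are means of 4 libraries. Cox6a2 is between 74.8% and 84.1% in knockout and between 25.9% and 74.1% in wild type, and Atp5g3 is lower in every knockout library than in any wild-type library.

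In complex V, mt-Atp6 and mt-Atp8 had the highest fold changes of the pathway on their own rows. mt-Atp6, the subunit through which protons flow, had 379, 527, 279 and 264 CPM in knockout and 218, 93.2, 47.7 and 120 CPM in wild type, with every knockout library above every wild-type library. Its log2 fold change was 1.60 ± 0.42 (SE), with an adjusted p of 0.119 by edgeR and 0.00408 by DESeq2. With its copy added it held 18256, 15008, 9678 and 15796 CPM in knockout and 9548, 5262, 6972 and 13951 CPM in wild type, the groups overlapped, and the log2 fold change was 0.72 ± 0.38 (SE, edgeR adjusted p = 0.355).

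mt-Atp8, a small membrane subunit, had 1757, 2232, 1129 and 1730 CPM in knockout and 928, 257, 415 and 1117 CPM in wild type, so that wild type 4 lay just below knockout 3 and no library overlapped. Its log2 fold change was 1.33 ± 0.44 (SE), with an adjusted p of 0.187 by edgeR and 0.0282 by DESeq2. No annotated copy was found for it, though the search covered annotated transcripts only. Its annotation shares 43 bases with mt-Atp6, and its effective length in the deposited tables averaged 61.3 bases, the shortest of the 13, so its level per length is the least secure.

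All 17 tested nuclear members of complex V were above 0, with a median of 0.17. The F1 head, where ATP is made, had a median of 0.34 over 5 genes, the peripheral stalk 0.32 over 4, the c ring 0.17 over 3 and the small membrane subunits 0.10 over 5. Atp5b, the catalytic beta subunit and the most abundant nuclear member of all per length, averaged 1437 ± 139 TPM in knockout and 1182 ± 245 TPM in wild type (SD, n = 4). Its counts were 1414, 897, 1027 and 1361 CPM in knockout and 784, 1130, 552 and 904 CPM in wild type, which overlap (0.48 ± 0.26 SE, edgeR adjusted p = 0.359). Atp5h, a stalk subunit, was lowest at 0.016.

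Atp5g1, Atp5g2 and Atp5g3 encode the same mature c subunit. They had log2 fold changes of 0.48, 0.15 and 0.17. Atp5g1 made up 38.3% to 42.3% of their TPM in knockout and 26.7% to 38.6% in wild type, and Atp5g3 made up 38.2% to 40.7% in knockout and 41.2% to 46.0% in wild type, without overlap.

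By level per length, with copies added, mt-Co1 was highest at 47154 ± 5492 TPM in knockout and 35134 ± 7004 TPM in wild type, and mt-Nd5 lowest at 4618 ± 285 TPM in knockout and 2563 ± 866 TPM in wild type (SD, n = 4). A copy's TPM is per its own length, and the counted copy of mt-Co1 matches only part of it, so that sum mixes lengths. On own rows mt-Co1 was at 32402 TPM in knockout and 21683 TPM in wild type. There mt-Atp8 was at 35220 TPM in knockout and 14291 TPM in wild type. The 13 genes and their copies summed to 234337 to 281306 TPM in knockout and 110837 to 224476 TPM in wild type, without overlap on this scale. These sums mix lengths in the same way. Own rows alone summed to 131198 to 153459 TPM in knockout and 55912 to 111822 TPM in wild type, also without overlap. The 82 tested nuclear members summed to 26018 to 33903 TPM in knockout and 22475 to 31914 TPM in wild type. TPM is a share of the library's transcripts, so these sums also depend on all other genes.

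Across the 82 nuclear members, longer genes had higher fold changes, with a Spearman correlation of 0.50 between log2 fold change and effective length. Over all 16908 tested genes it was 0.18. The points share the same 8 libraries and genes are not independent, so no p is given. The core subunits with higher medians are also the longer ones, with median effective lengths of 883 bases for the complex I core against 482 for its accessory genes, and 1460 against 387 bases in complex III. The part of length in these medians was not tested. In the 1 fit with effective length as an offset the nuclear median was 0.20. That fit scaled each gene's lengths to the gene's own mean over libraries, so it cannot address differences in length between genes.

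**Figure D5:**
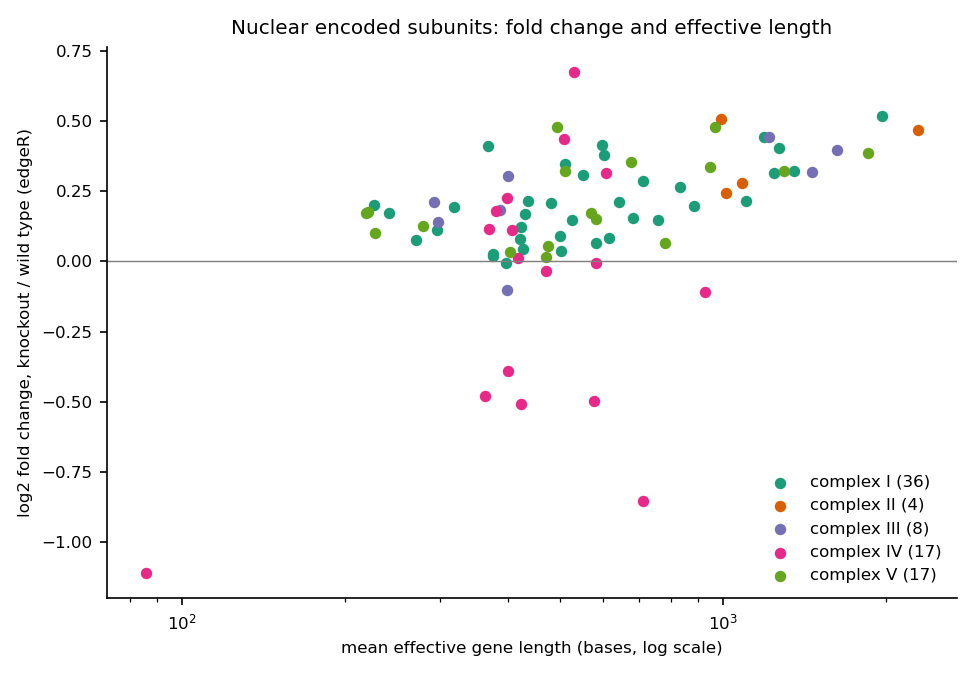
Log2 fold change (knockout over wild type, edgeR) of each of the 82 tested nuclear members against its mean effective length in bases (log scale), coloured by complex. The longest genes lie above 0, and most of the points below 0 belong to complex IV.

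The genes that surround the pathway were read from lists. The 18 tricarboxylic acid cycle genes, which supply its electrons, were all above 0 with a median of 0.41, and 0 were called by edgeR, with 1, Idh3b (0.57 ± 0.25 SE, edgeR adjusted p = 0.270), at an unadjusted p under 0.05 and 0 called by DESeq2. Their median was -0.051 with the muscle level in the model. Cytochrome c (Cycs) and Cyc1, the cytochrome c1 of complex III that the symbol rule misses, were at 0.44 ± 0.24 and 0.42 ± 0.24 (SE, edgeR adjusted p = 0.368 and 0.384). Assembly factors of complexes I to V had medians of 0.21, 0.18, 0.20, 0.081 and 0.14 over 17, 4, 6, 21 and 5 genes. Mitochondrial carriers and membrane genes had a median of 0.23 over 16 genes, and glycolysis 0.27 over 18. edgeR called 0 in any of these lists. At an unadjusted p under 0.05 were 3 of 17 complex I assembly factors, 1 of 16 carrier genes and 4 of 18 glycolysis genes. Of all tested genes 17.6% stood at that limit in either direction. DESeq2 called 2 glycolysis genes, where it called 5.88% of all genes. The glycolysis genes went both ways, with 12 above 0 and 6 below, from -0.55 to 0.75. Without overlap 0 of them were higher and 2 lower, where 5.39% and 5.65% of all tested genes were.

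Genes that express mitochondrial DNA, 24 in number, had a median of 0.22, with 20 above 0 and 0 called by edgeR or DESeq2 (2 at an unadjusted p under 0.05). Tfam, which packages mitochondrial DNA and helps start its transcription, had 25.8 to 35.7 CPM in knockout and 22.6 to 29.0 CPM in wild type (0.22 ± 0.14 SE, edgeR adjusted p = 0.438), and the mitochondrial RNA polymerase Polrmt was at 0.25 ± 0.11 (SE, edgeR adjusted p = 0.299). Mitochondrial ribosomal protein genes stood near 0, with medians of 0.032 over 49 large-subunit and -0.024 over 31 small-subunit genes, 0 called by edgeR or DESeq2 and 2 at an unadjusted p under 0.05. The mitochondrial ribosomal RNAs mt-Rnr1 and mt-Rnr2 were at 0.46 ± 0.30 and 0.62 ± 0.28 (SE, edgeR adjusted p = 0.439 and 0.289).

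Of 16 regulators of mitochondrial biogenesis, 12 were above 0, 8 had an unadjusted p under 0.05, edgeR called 0 and DESeq2 called 3. At that unadjusted limit stood 17.6% of all tested genes. Without overlap 3 regulators were higher and 2 lower, where 5.39% and 5.65% of all tested genes were. Ppargc1a, a coactivator of respiratory genes abundant in muscle, had 16.3, 8.66, 10.4 and 11.3 CPM in knockout and 6.13, 8.49, 2.74 and 6.71 CPM in wild type, without overlap (0.96 ± 0.33 SE, edgeR adjusted p = 0.200), and 0.30 with the muscle level in the model. The receptors Esrrb and Esrrg, relatives of Esrra that act with it, were at 1.29 ± 0.37 and 1.48 ± 0.47 (SE, edgeR adjusted p = 0.145 and 0.171), and Esrra at 0.20 ± 0.19 (SE, edgeR adjusted p = 0.589). Sirt3, the mitochondrial deacetylase, was at 0.61 ± 0.18 (SE, edgeR adjusted p = 0.154). Nrf1, whose motif is marked in the promoters of Uqcrc1, Cox6a1 and Atp5g3, had 21.4, 22.4, 23.9 and 21.2 CPM in knockout and 27.9, 29.4, 33.7 and 24.7 CPM in wild type, lower without overlap (-0.38 ± 0.13 SE, edgeR adjusted p = 0.181). Gabpa was at 0.28 ± 0.14 (SE, edgeR adjusted p = 0.318) and Ppargc1b at -0.19 ± 0.25 (SE, edgeR adjusted p = 0.715).

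Markers of other cells in the skin gave these values beside the pathway. All 8 suprabasal keratinocyte genes had a fold change below 0, with a median of -1.17. All 8 were at an unadjusted p under 0.05, where 9.37% of all tested genes were lower. Without overlap 4 were lower, where 5.65% of all tested genes were. DESeq2 called 6 of the 8 and edgeR 2, Krtdap and Lor, though most fits that left out 1 library lost the edgeR calls. Medians were -0.30 over 7 basal keratinocyte genes, -0.52 over 10 white adipocyte genes, 0.048 over 9 brown adipocyte genes and -0.40 over 7 fibroblast genes, with 0 called by edgeR in each. At an unadjusted p under 0.05 stood 1, 1, 2 and 0 of these, where 17.6% of all tested genes stood in either direction. DESeq2 called 2 brown adipocyte genes and 0 in the basal keratinocyte, white adipocyte and fibroblast lists. The 9 brown adipocyte genes went both ways, from -1.99 to 1.66, with 5 above 0 and 4 below. That list holds Cox7a1 and Cox8b, which the member rule leaves out. The part of cell composition in the values of the pathway was not tested beyond the muscle and immediate early terms above.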

How the data were processed

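Per the file headers, each library had its own deposited RSEM table, whose expected counts are estimated reads per gene, not normalized, and whose TPM values are the authors' levels per effective length and library. Deposited effective lengths entered 1 alternative fit. The authors' matrix of normalized signal was used for symbols only (17354, with 37798 more from a reference name table and 336 without a symbol). Per the submitters' processing notes, STAR 2.7.6a, RSEM 1.31, DESeq2 and DESeq were named for GRCm38, with no role given. RSEM divides reads that match several genes by probability. Per the labels' protocols, total RNA went through the NEBNext Ultra kit, which does not mark strand.

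Expected counts were rounded and fitted in edgeR 4.0.16 (R 4.3.3) over all genes kept by filterByExpr (minimum count 10, minimum total 15; 16908 of 29559 genes with a count), with TMM scaling, the robust quasi-likelihood F test and genotype as the only term. A call is a Benjamini-Hochberg adjusted p under 0.05 over all tested genes. SE was taken as |log2 fold change| over the square root of F. CPM are relative to TMM-scaled totals, and a level is the mean of log2(CPM + 1). DESeq2 1.42.0, other scalings, no filter, a length offset, covariates and left-out libraries were alternatives. The covariate fits use a level measured in the same libraries. Fits were tested on simulated data. Copies of members were sought with BLAST+ 2.17.0 megablast among GENCODE M21 transcripts (GRCm38), at 95% identity or more over 150 bases or more, among pseudogenes elsewhere in the genome. Ndufa4 and Ndufa4l2 were counted with complex IV.

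Named genes were, by rule, the 13 mitochondrially encoded members, the highest, lowest and most abundant nuclear member of each complex, all Sdh genes, isoform pairs, members under the filter, the called or 2 lowest-p genes of each list, and Ppargc1a, Ppargc1b, Esrra, Nrf1, Gabpa, Tfam, Polrmt, Cyc1 and Cycs; of the lists outside the pathway, not every gene of this rule is printed. Others (Uqcrc1, Uqcrc2, Ndufv1, Ndufa12, Ndufb4, Ndufb4c, Ndufs7, Atp5l, Esrrg, Mb, mt-Rnr1, mt-Rnr2) were chosen after their values were seen, as were the structural groups of core, accessory, head, stalk and ring subunits. The members and all lists were chosen with earlier results of these data known. Replicates were numbered by accession order, which pairs nothing, and no batch is labelled.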

Additional observations from a re-analysis of the deposited data

Results flagged for a closer look

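Of 192 levels and groups searched for a library far from the other 3 of its genotype, 2 stood out, and chance alone flags about 1 in 20 such groups.

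In complex IV, the level of mitochondrially encoded minus nuclear members on the genes' own rows was 4.62 in knockout 3, while the other 3 knockout libraries lay between 4.84 and 4.85, and the wild-type libraries between 3.50 and 4.30. The other 3 are close together, so a small gap stands out.

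The level of the 16 biogenesis regulators was 4.38 in knockout 2, while the other 3 knockout libraries lay between 4.58 and 4.61, and the wild-type libraries between 4.02 and 4.37.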

How the results depend on the processing

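No paired analysis was possible because the replicate numbers only follow the order of the accessions. Across the alternatives run, the median of the mitochondrially encoded members and the 4 differences from nuclear members by complex stayed above 0, and edgeR called 0 members in each fit. DESeq2 called 994 genes and 3 members. The count of 110 genes called was 6 with the muscle level and 6 with the immediate early level in the model, 167 without knockout 3 and wild type 2 together, 168 when copies were also added, and 8 to 170 with 1 library left out. Leaving out 1 library gave 0.0030 to 0.33 for the nuclear median. With the immediate early level as covariate the nuclear median was -0.17 and the difference by complex was 1.27 in I, 0.76 in III and 2.30 in V. In complex V it was 0.51 with copies added and without knockout 3 and wild type 2. Upper quartile scaling turned Ndufa11 and Cox4i1 to 0.015 each, and the length offset turned them to 0.00987 and 0.013 and Polrmt to -0.23. Without knockout 3 and wild type 2 together, log2 fold changes turned to 0.23 for Ndufa11, 0.11 for Uqcrh, 0.0946 for Cox6c2, 0.22 for Cox4i1 and 0.11 for Cox7a2, and with copies added as well to 0.23, 0.11, 0.0948, 0.22 and 0.11 in the same order. With the muscle level in the model, fold changes were -0.24 for Ndufb8, -0.085 for Sdhb, -0.098 for Sdhc, -0.00071 for Sdha, -0.072 for Sdhd, -0.39 for Cox6a2, -0.057 for Atp5g1, -0.076 for Atp5g2, -0.13 for Atp5g3, -0.15 for Atp5h, -0.26 for Cox6b1, -0.27 for Ndufa4, -0.056 for Cyc1, -0.070 for Cycs and -0.076 for Esrra. With the immediate early level they were -0.16 for Ndufs1, -0.27 for Ndufb8, -0.11 for Sdhb, -0.11 for Sdhc, -0.17 for Sdha, -0.28 for Sdhd, -0.026 for Uqcrfs1, -0.23 for Cox6a2, -0.036 for Atp5g1, -0.18 for Atp5g2, -0.15 for Atp5g3, -0.14 for Atp5h, -0.14 for Atp5b, -0.30 for Cox6b1, -0.24 for Ndufa4, -0.15 for Cyc1, -0.059 for Cycs and -0.15 for Esrra. Leaving out 1 library gave ranges across 0 of -0.20 to 0.13 for Ndufa11, -0.25 to 0.051 for Uqcrh, -0.12 to 0.13 for Atp5h, -0.19 to 0.15 for Cox4i1, -0.19 to 0.16 for Cox6b1, -0.19 to 0.082 for Cox7a2, -0.028 to 0.25 for Ndufa4 and -0.0031 to 0.29 for Atp5g2. None of these genes was called in the fit reported. The cause of these shifts was not tested. With 4 libraries a group and 1 level per library, a covariate and genotype are hard to separate.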
